A study of Rana omeimontis with 12 samples.

Results

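Collectins, pulmonary surfactant proteins, ficolins and intelectins were described in liver and tail transcriptomes of tadpoles treated with thyroid hormone (T3). The assembled transcripts, called unigenes, were taken where the description carried over from the NR protein database contained collectin, pulmonary surfactant, mannose-binding protein or lectin, ficolin or intelectin, compared in lower case (for example collectin-11 or pulmonary surfactant-associated protein d). Of 56172 unigenes, 39 matched this wording, and 31 of them reached at least 1 FPKM (fragments per kilobase of transcript, relative to all mapped fragments of the library) in 3 or more of the 12 libraries. The family was chosen by measured values, because a collectin-11 and a surfactant protein D unigene led the falls of the liver under T3, so every liver difference of a member is a description, given without a p-value. The tail comparison played no part in the choice and was tested. The 31 members were 11 surfactant protein D, 11 ficolin, 3 collectin-12 and 2 collectin-11 unigenes, with 1 each of collectin-10, surfactant protein A, surfactant protein C and intelectin 2. No description named a mannose-binding lectin, and none named surfactant protein B. The 8 matching unigenes outside the set reached at most 0.66 FPKM in the third highest of their libraries, whereas the members just inside the limit, a ficolin, a surfactant protein D and a collectin-12 unigene, had 1.06, 1.13 and 1.15 FPKM there.

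Collectins are secreted proteins that join a collagen-like tail to a C-type lectin domain and bind sugars on the surface of microbes. In mammals, surfactant proteins A and D are best known from the lung lining, while collectin-10 and collectin-11 are made in the liver and circulate in plasma. Ficolins share the collagen-like tail but recognise acetylated sugars through a fibrinogen-like domain. Circulating collectins and ficolins carry the MASP proteases, which cleave complement C4 and C2 and so start the lectin pathway of complement. Intelectins are lectins of another fold that bind microbial glycans. Not every member is a soluble lectin: collectin-12 is a scavenger receptor of the cell membrane, and surfactant protein C is a small hydrophobic peptide of lung surfactant with no lectin domain.

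*Rana omeimontis* tadpoles of the pro-metamorphic period (Gosner stage 30 to 31) were kept for 3 days in 10 nM T3, which brings on metamorphosis, or in the vehicle DMSO as control. Food was given throughout, and the authors report that T3-treated tadpoles ate less and lost weight. The effects of T3 and of lower food intake thus cannot be told apart here. Livers and tails gave 4 groups of 3 libraries: T3 liver, control liver, T3 tail and control tail. The tadpoles hatched from clutches collected in the field, no genotype or strain separated the groups, and the labels class the T3 groups as metamorphic and the control groups as pro-metamorphic. The sources used here do not say whether a library holds 1 animal or a pool, so the spread between libraries may be partly technical.

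The libraries lay within 1.37 times of each other in depth, as judged from the steps between low FPKM values, and those of a group correlated at 0.921 to 0.970 on the log2(FPKM + 1) scale. Thyroid hormone receptor beta, the classical direct target of T3 in tadpoles, was listed at 0 in all control livers and reached 3.15 to 6.39 FPKM in the T3 livers, and in the tail it had 8.88 to 11.4 FPKM in T3 libraries, against 0.15 to 0.80 FPKM in controls. Of 2 thyroid hormone response unigenes tested in liver, 1 was called higher and 1 lower, where 3.83% and 8.67% of all unigenes were. In tail 4 of 5 were called higher and 0 lower, where 19.2% and 6.23% were. All those called higher reached 1 FPKM only through the T3 libraries, so they could enter the fit only by differing. Liver libraries carried the liver markers, with hepatocyte transcripts at 5.51% to 7.19% of summed FPKM in T3 livers and 4.34% to 6.34% in control livers, against at most 0.0148% in any tail. Control livers 1 and 2 also held exocrine pancreas transcripts (8.13% and 10.1% of summed FPKM), which were at 0.0236% to 0.634% in the T3 livers and 0.0401% in control liver 3. T3 liver 2 stood below the other T3 livers for part of the members, as given beside the ficolins. Several members share an assembly component (10 members in 5 components), so that they may be pieces or near copies of 1 transcript among which the authors' quantification could have divided reads. Unigenes are named by their assembly identifiers without the common prefix.

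**Figure D1:**
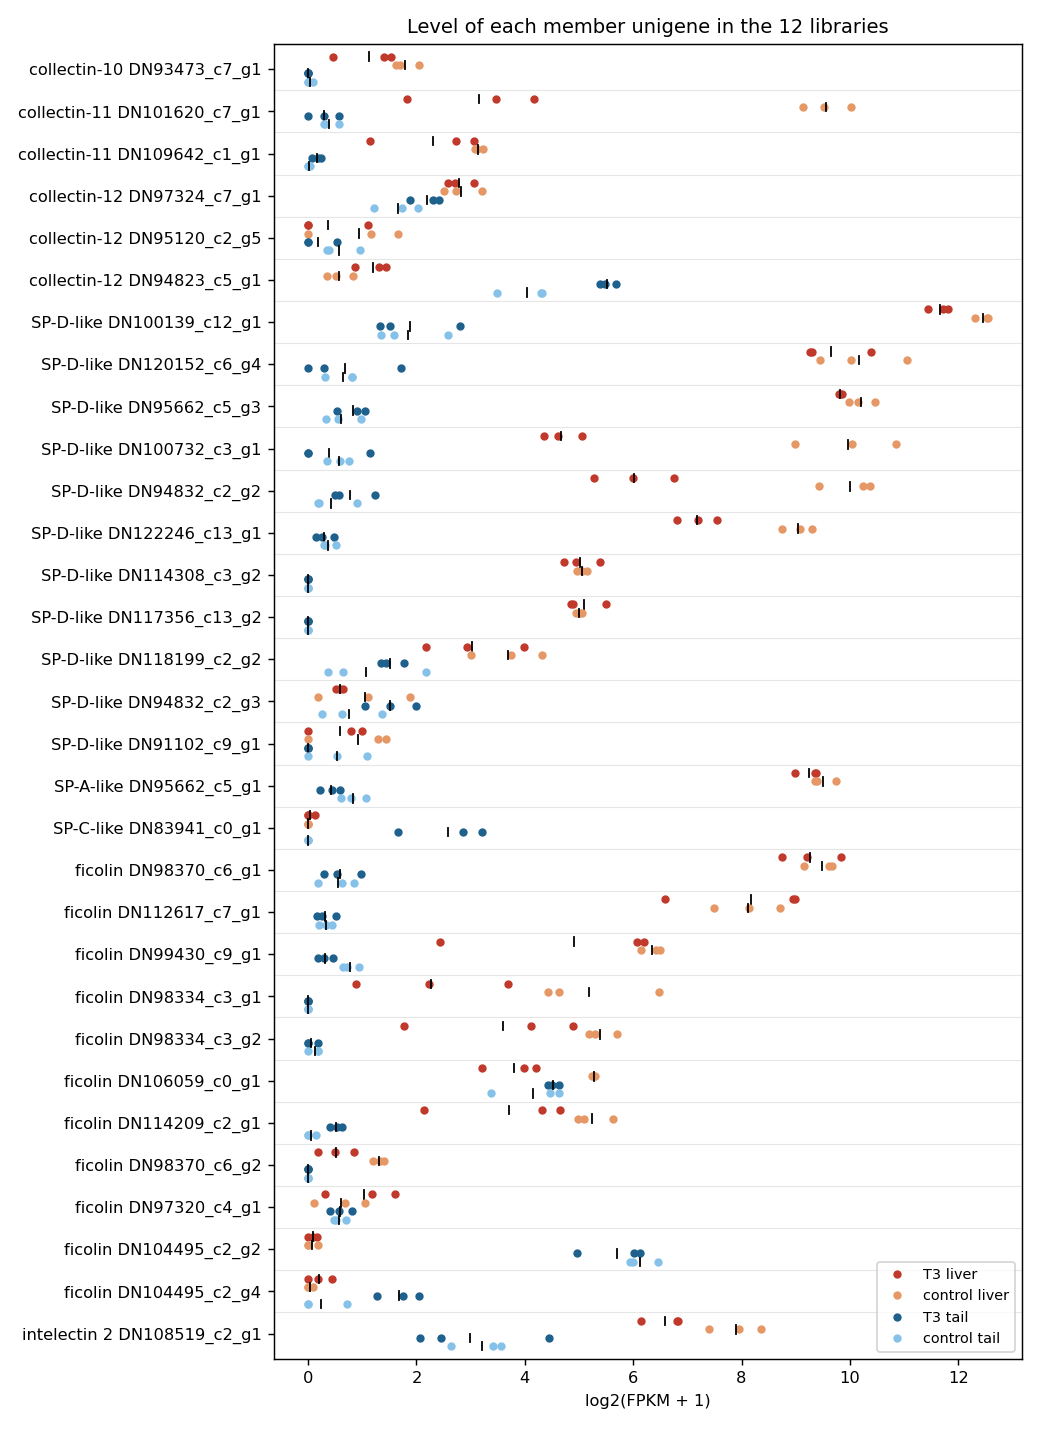
Level of each of the 31 members in the 12 libraries as log2(FPKM + 1) on the horizontal axis, 1 row per unigene, with points for single libraries and black ticks for group means. Most members sit far to the right in liver and near 0 in tail, and collectin-11 DN101620_c7_g1 and SP-D-like DN100732_c3_g1 show the widest gap between T3 and control livers.

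The largest difference of the family in liver was that of a collectin-11 unigene, which was nearly gone from T3 livers. Collectin-11 (CL-K1 in mammals, a plasma lectin that carries MASPs) was represented by DN101620_c7_g1, which had 10, 16.9 and 2.56 FPKM in T3 livers 1 to 3, against 735, 563 and 1037 FPKM in control livers 1 to 3. The highest T3 liver thus lay far below the lowest control liver, and the T3 mean of 9.82 ± 7.18 FPKM was 79.2-fold lower than the control mean of 778 ± 240 FPKM (SD, n = 3 each). The difference of mean log2(FPKM + 1) was -6.41, and it ranged from -6.92 to -5.75 when each library was left out in turn. By mean level the unigene held rank 4345 of the table in T3 livers and rank 235 in control livers.

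A second collectin-11 unigene, DN109642_c1_g1, described as isoform X2, was far less abundant. It had 5.60, 1.20 and 7.35 FPKM in T3 livers, against 7.71, 8.37 and 7.45 FPKM in control livers. The groups did not overlap, but T3 liver 3 came within 0.1 FPKM of control liver 3, and the log2 difference of -0.84 shrank to -0.25 without T3 liver 2. Collectin-10 (CL-L1, the partner of collectin-11 in mammalian plasma) was lower still, at 1.65, 0.38 and 1.87 FPKM in T3 livers, against 2.23, 3.12 and 2.07 FPKM in control livers. Its log2 difference was -0.65, and -0.32 without T3 liver 2. Its groups did not overlap, and all its values were below those of both collectin-11 unigenes in control liver.

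Unigenes described as surfactant protein D-like, here called SP-D, made up most of the member transcripts in liver. Surfactant protein D itself is the C-type lectin that clears microbes in the mammalian lung. The description was carried over from the NR database, and which collectin these unigenes encode was not tested. The 11 SP-D unigenes summed to 4640 to 5962 FPKM in T3 livers, against 8726 to 12732 FPKM in control livers. The most abundant, DN100139_c12_g1, had 3372, 2792 and 3616 FPKM in T3 livers, against 6029.7, 5082 and 5910.2 FPKM in control livers. No T3 liver reached a control liver, the mean was 1.74-fold lower (3259.9 ± 423 against 5674 ± 516 FPKM, SD, n = 3 each), and the unigene stood at rank 44 of all transcripts in T3 livers and rank 25 in control livers.

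The other SP-D unigenes differed widely among themselves in how far T3 livers lay below control livers. DN100732_c3_g1 had 32.2, 23.4 and 19.6 FPKM in T3 livers, against 1839, 509 and 1049.8 FPKM in control livers, a mean 45.2-fold lower (log2 difference -5.29). DN94832_c2_g2 had 107, 63.1 and 37.6 FPKM in T3 livers, against 1207, 685 and 1318 FPKM in control livers, a mean 15.4-fold lower (-4.00). DN122246_c13_g1 had 110.5, 186 and 145 FPKM in T3 livers, against 429, 542 and 629 FPKM in control livers, a mean 3.62-fold lower (-1.86). In these 3 unigenes every T3 liver lay below every control liver.

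For the remaining SP-D unigenes, abundant and scarce, the differences were smaller. DN95662_c5_g3 had 921, 898 and 889 FPKM in T3 livers, against 1007, 1134 and 1412 FPKM in control livers (log2 difference -0.38, and -0.04 with median-ratio scaling), with all T3 livers below all control livers. DN120152_c6_g4 had 1349, 615 and 633 FPKM in T3 livers, against 2131, 699 and 1041 FPKM in control livers, and the groups overlapped (-0.52). DN118199_c2_g2 overlapped as well, with 14.8, 3.54 and 6.59 FPKM in T3 livers, against 19.0, 12.4 and 7.01 FPKM in control livers (-0.66). A pair of unigenes at lower levels overlapped between treatments. DN114308_c3_g2 had 25.5, 29.97 and 40.9 FPKM in T3 livers, against 34.5, 32.1 and 30.3 FPKM in control livers (-0.03). DN117356_c13_g2 had 28.8, 27.9 and 44.2 FPKM in T3 livers, against 32.1, 29.9 and 31.4 FPKM in control livers (0.08). The ratio of these 2 unigenes stayed between 0.884 and 1.07 in all 6 livers, so they may be parts of 1 transcript. The scarcest SP-D unigenes, DN94832_c2_g3 and DN91102_c9_g1, did not exceed 2.67 FPKM in any liver.

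Surfactant protein A, the sister lectin of SP-D in the lung, was represented by DN95662_c5_g1, which shares an assembly component with DN95662_c5_g3. It had 655, 507 and 662 FPKM in T3 livers, against 656, 675 and 856 FPKM in control livers. The groups overlapped, and the log2 difference of -0.26 was the same as the median of all tested unigenes and turned to 0.07 when libraries were scaled by median ratio.

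**Figure D2:**
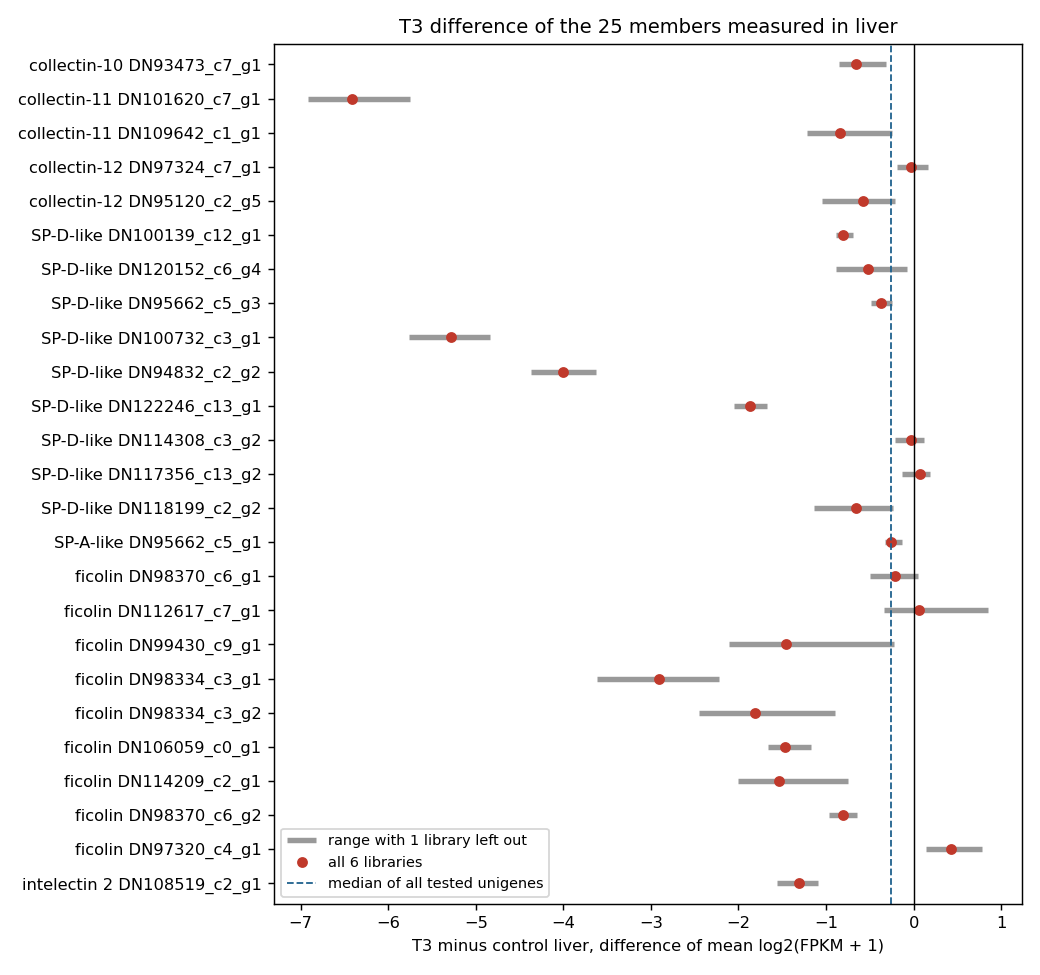
Difference between T3 and control livers in mean log2(FPKM + 1) on the horizontal axis for the 25 members measured in liver (points), with the range found when each library was left out in turn (grey bars) and the median of all tested unigenes (dashed line). Collectin-11 DN101620_c7_g1 at -6.41 and 2 SP-D-like unigenes at -5.29 and -4.00 stand apart, while other SP-D-like unigenes lie near 0.

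Ficolins formed the second largest group, and the 2 most abundant overlapped between treatments. DN98370_c6_g1, described as ficolin-2-like, had 431, 915 and 594 FPKM in T3 livers, against 809, 568 and 788 FPKM in control livers. DN112617_c7_g1, also ficolin-2-like, had 95.7, 494 and 507 FPKM in T3 livers, against 421, 179.6 and 279 FPKM in control livers. In both, T3 liver 1 was the lowest of the 6 livers. Their log2 differences were -0.21 and 0.06.

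Ficolins of middle abundance were lower in T3 livers. DN98334_c3_g1 had 3.72, 0.85 and 11.9 FPKM in T3 livers, against 23.8, 20.5 and 88.5 FPKM in control livers (-2.91). DN98334_c3_g2 of the same component had 16.4, 2.41 and 28.5 FPKM in T3 livers, against 35.3, 38.3 and 51.3 FPKM in control livers (-1.81). DN114209_c2_g1 had 18.9, 3.38 and 24.1 FPKM in T3 livers, against 33.2, 30.6 and 48.2 FPKM in control livers (-1.53). All 3 carry the description ficolin-2-like isoform X2, and in each of them all T3 livers were below all control livers. DN106059_c0_g1, ficolin-2-like isoform X1, had 14.9, 8.31 and 17.4 FPKM in T3 livers, against a narrow 36.9, 38.5 and 37.6 FPKM in control livers (-1.47). DN99430_c9_g1, ficolin-1-like, had 66.2, 4.39 and 72.7 FPKM in T3 livers, against 89.3, 85.1 and 69.7 FPKM in control livers. Its groups overlapped, and the log2 difference of -1.45 was set by T3 liver 2, since it was -0.22 without that library. The low ficolins DN98370_c6_g2 and DN97320_c4_g1 stayed at or below 2.05 FPKM in every liver.

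T3 liver 2 was low for a set of ficolins and for part of several other lists, immune and not. For 4 of 9 ficolins, and for 5 of all 25 members measured, log2(FPKM + 1) in T3 liver 2 was at least 1 below the lower of the other T3 livers. This held for 4.29% of the 18923 unigenes tested in liver, and the same count for each of the other liver libraries within its group gave 1.05% to 2.20% and at most 1 member. Among membrane C-type lectins 16 of 38 were low in T3 liver 2 in this sense, as were 4 of 11 macrophage and leukocyte markers. So were 8 of 30 exocrine pancreas markers and 2 of 6 erythrocyte markers, but only 2 of 38 hepatocyte markers and 0 of 7 epidermis markers. Without T3 liver 2 the log2 difference was -2.22 for DN98334_c3_g1, -0.90 for DN98334_c3_g2, -0.75 for DN114209_c2_g1 and -1.18 for DN106059_c0_g1, while collectin-11 DN101620_c7_g1 stood at -6.92 and SP-D DN100732_c3_g1 at -5.25.

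**Figure D3:**
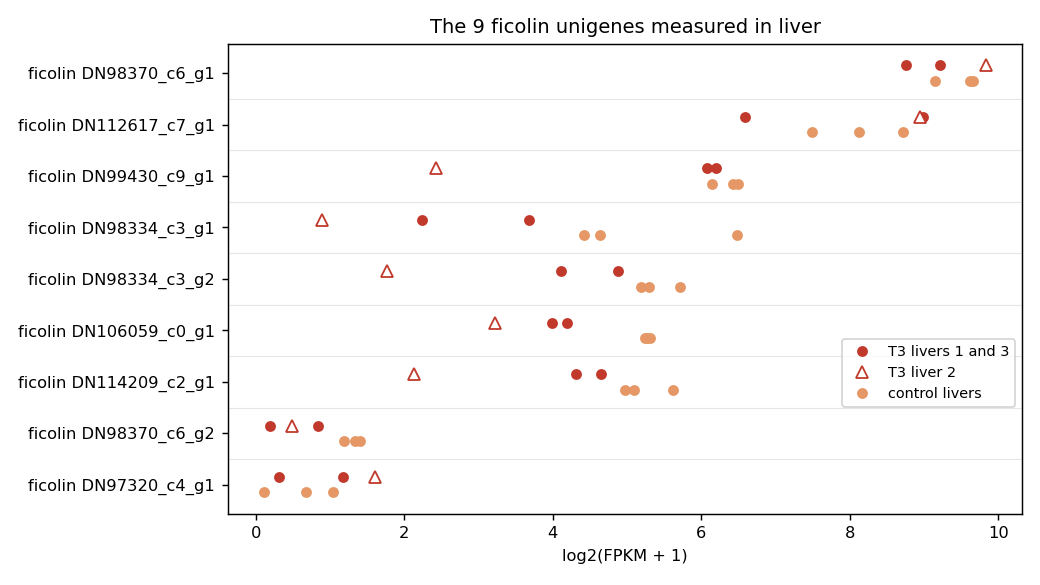
The 9 ficolin unigenes measured in liver as log2(FPKM + 1) on the horizontal axis, with T3 livers 1 and 3 as filled points, T3 liver 2 as an open triangle and control livers in a second colour below them. T3 liver 2 is the lowest T3 liver in 5 ficolins of middle abundance, among them DN99430_c9_g1 at 4.39 FPKM, and the highest in DN98370_c6_g1 at 915 FPKM.

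Intelectin 2, of the intelectin family, was represented by DN108519_c2_g1. It had 112, 70.1 and 112 FPKM in T3 livers, against 326, 169 and 247 FPKM in control livers. The groups did not overlap, and the T3 mean was 2.53-fold lower (97.9 ± 24.1 against 248 ± 78.8 FPKM, SD, n = 3 each). The membrane receptor collectin-12 was scarce in liver. Its unigene DN97324_c7_g1 had 5.55, 5.02 and 7.32 FPKM in T3 livers, against 4.68, 5.66 and 8.25 FPKM in control livers, with overlapping groups. The collectin-12 unigenes DN95120_c2_g5 and DN94823_c5_g1 stayed at or below 2.15 FPKM in every liver. Surfactant protein C (DN83941_c0_g1) was listed at 0 in 5 of 6 livers and at 0.09 FPKM in T3 liver 1.

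Summed over all 31 members, T3 livers held 6673 to 7486 FPKM, against 11115 to 15916 FPKM in control livers, or 0.692% to 0.776% of summed FPKM against 1.08% to 1.56%. The 3 members with the largest differences, collectin-11 DN101620_c7_g1 and SP-D DN100732_c3_g1 and DN94832_c2_g2, chosen after their values were seen, gave 59.7 to 149 FPKM in T3 livers, against 1757 to 3781 FPKM in control livers. Without them the other 28 members summed to 6569 to 7426 FPKM in T3 livers and 9359 to 12135 FPKM in control livers, 1.56-fold lower in the mean. SP-D DN100139_c12_g1 alone supplied 45.2 ± 3.24% of the member sum in T3 livers and 41.04 ± 4.13% in control livers (SD, n = 3 each).

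**Figure D4:**
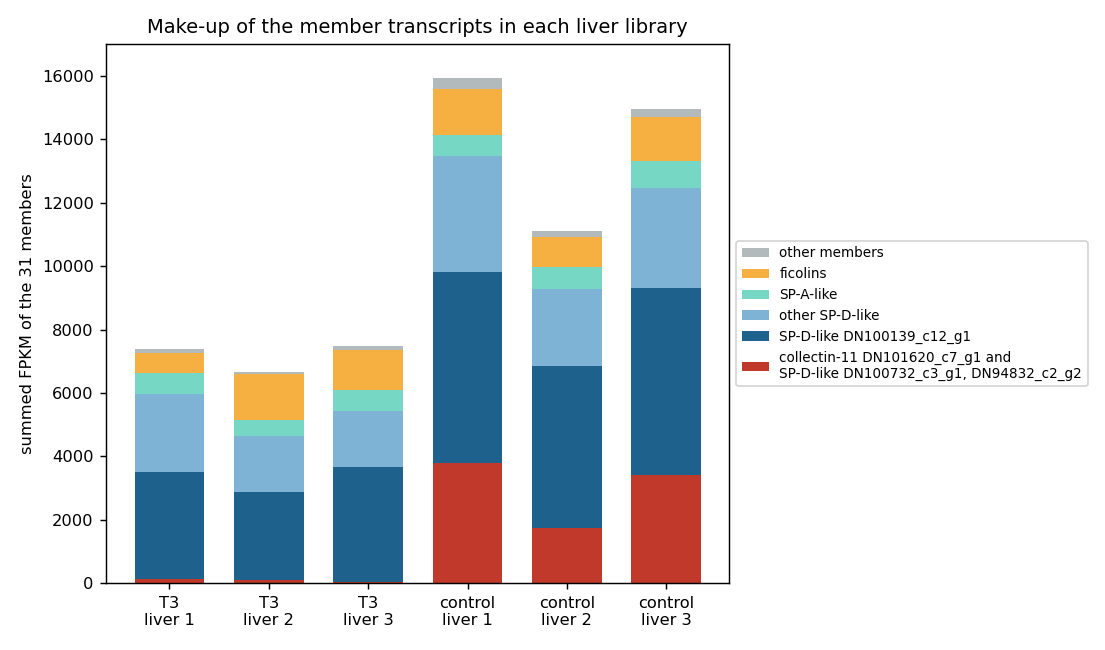
Summed FPKM of the 31 members in each liver library (bars from 0), divided into the 3 unigenes with the largest differences, SP-D-like DN100139_c12_g1, the other SP-D-like unigenes, SP-A-like, ficolins and the rest. The T3 livers reach 6673 to 7486 FPKM and the control livers 11115 to 15916 FPKM, and the bottom segment is 59.7 to 149 FPKM with T3.

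Of the 25 members that had at least 1 FPKM in 3 of the 6 livers, 14 had all T3 livers below all control livers, against 28.2% of all unigenes tested, and 0 had all T3 livers above all control livers, against 8.61%. In the limma fit over all unigenes 8 of the 25 lay past an adjusted p of 0.05 on the lower side, where 8.67% of all unigenes lay, and 0 on the higher side, where 3.83% lay (11 and 0 at an unadjusted p below 0.05). This is the contrast that chose the family, so these counts describe the choice and test nothing. The median log2 difference of the members was -0.80, beside -0.26 for all tested unigenes. Of the 25, 1 reached 1 FPKM only through the control livers, ficolin DN98370_c6_g2, so it could enter the fit only by differing. It is among the 14, and its own difference of -0.80 is the median. The median is therefore no result about the family. Since scaling by median ratio moved the median of all unigenes to -0.02, the same members then had a median of -0.47, with 18 of 25 below 0 in place of 22. Without control livers 1 and 2, the libraries with pancreas transcripts, collectin-11 DN101620_c7_g1 stood at -6.87, SP-D DN100732_c3_g1 at -5.36 and DN94832_c2_g2 at -4.36, with 1 control liver left.

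Markers of other cell types were read beside these values. Macrophage and leukocyte markers other than lysozyme, whose level followed the pancreas transcripts, summed to 55.2 to 163 FPKM in T3 livers, against 337 to 404 FPKM in control livers. Of 11 such markers tested, lysozyme included, 4 fell with T3 and 0 rose, where 8.67% and 3.83% of all unigenes in liver did. The 4 were MARCO DN119558_c0_g1, DN112064_c5_g2 and DN112064_c5_g1 and integrin alpha-M-like DN109189_c0_g3, so the count rests on few genes. Leukocyte antigen CD53, receptor-type tyrosine phosphatase C and integrin alpha-L did not pass (limma, -1.33, -1.36 and -1.01, adjusted p = 0.0880, 0.0768 and 0.0609). The MARCO unigene DN119558_c0_g1, a macrophage scavenger receptor, had 58.9, 26.4 and 45.2 FPKM in T3 livers, against 161, 129 and 106 FPKM in control livers. The part of such cells in the ficolin and collectin differences was not tested, and in bulk libraries fewer cells of a type cannot be told apart from less RNA per cell. Hepatocyte markers moved both ways, with 5 of 38 tested unigenes higher and 6 lower, where 3.83% and 8.67% of all unigenes were. Fibrinogen alpha DN102282_c7_g6 and fibrinogen beta DN123168_c2_g1 did not pass (limma, 0.27 and 0.47, adjusted p = 0.487 and 0.204). Apolipoprotein A-I DN97840_c5_g3 fell to 2047, 1771 and 2175 FPKM in T3 livers, against 9207, 7632 and 11943 FPKM in control livers (limma, -2.24, adjusted p = 9.09e-04). Another apolipoprotein A-I unigene, DN98129_c1_g1, chosen after its values were seen, rose (limma, 1.52, adjusted p = 0.00540). It had 689, 660 and 942 FPKM in T3 livers, against 287, 221 and 286 FPKM in control livers. The apolipoprotein A-I unigenes DN115013_c9_g7 and DN97840_c5_g2 did not pass (log2 differences 0.89 and -1.31). Serum albumin DN114876_c5_g1, chosen after its values were seen, rose to 6995, 5128 and 8119.8 FPKM in T3 livers, against 1026, 482 and 1123 FPKM in control livers (3.01, adjusted p = 0.00247). Lung epithelium markers made up 0.00147% to 0.00680% of summed FPKM in T3 livers and 0.00677% to 0.0115% in control livers. The share was 0.00655% to 0.0163% in control tails and 0.0162% to 0.0252% in T3 tails. It came mostly from lysosome-associated membrane glycoprotein 3 DN102141_c5_g2, with a mean of 85.7 FPKM in control livers and 142 FPKM in T3 tails. Surfactant protein C-like DN83941_c0_g1 was at or near 0 in the same livers that carried SP-D and SP-A, but had 2.16 to 8.31 FPKM in T3 tails. These markers thus do not single out lung in these libraries, and whether the livers held lung tissue was not tested.

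The members were mostly liver transcripts in these 2 tissues. In 21 of 31 the control liver mean was at least 10 times the control tail mean, in 23 every control liver was above every control tail, and 3 had the higher mean in control tail. The 21 include surfactant protein C DN83941_c0_g1 only because it was listed at 0 in all control livers and all control tails. It is not a liver transcript by these values. The 11 members with at least 100 FPKM in control liver had 0.14 to 10.9 FPKM in control tails, with intelectin 2 as the highest. Collectin-11 DN101620_c7_g1 had 0.23, 0.48 and 0.24 FPKM in control tails, so its T3 livers at 2.56 to 16.9 FPKM were still above all tails. The low levels of liver members in tail were not even across libraries. For 9 of these 11 members the highest tail value was in T3 tail 2, whose sum over the 11 was 35.4 FPKM, against 7.38 to 20.4 FPKM in the other tails. Whether these values come from tail cells or from traces of other tissue was not tested.

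The 3 members higher in tail were a collectin-12 and 2 ficolins. The ficolin 2 precursor DN104495_c2_g2 was a tail transcript, with 30.3, 63.9 and 69.2 FPKM in T3 tails and 62.7, 86.7 and 60.6 FPKM in control tails, and at most 0.14 FPKM in any liver. Ficolin-2-like isoform X2 DN104495_c2_g4 of the same component did not exceed 0.35 FPKM in any liver. Collectin-12 DN94823_c5_g1 did not exceed 1.71 FPKM in any liver. Ficolin DN106059_c0_g1 was present in both tissues, with 36.9 to 38.5 FPKM in control livers and 9.34 to 23.6 FPKM in control tails.

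In the tail, 10 members had at least 1 FPKM in 3 of the 6 libraries and were tested with limma. Collectin-12 DN94823_c5_g1, a receptor that takes up oxidised lipoproteins and microbes in mammalian endothelium, rose with T3. It had 41.1, 43.4 and 50.4 FPKM in T3 tails, against 19.1, 18.7 and 10.3 FPKM in control tails. Every T3 tail was above every control tail, the mean was 2.81-fold higher (44.9 ± 4.84 against 16.01 ± 4.99 FPKM, SD, n = 3 each), and the log2 difference was 1.48 with a standard error of 0.28 (adjusted p = 0.00433). The call held under all 15 alternatives of the processing, including the omission of each library. The second collectin-12 unigene, DN97324_c7_g1, had 2.66, 4.35 and 3.92 FPKM in T3 tails, against 3.07, 2.33 and 1.33 FPKM in control tails, and did not pass (0.54, adjusted p = 0.195).

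Surfactant protein C-like DN83941_c0_g1 was listed at 0 in all 3 control tails and had 2.16, 6.23 and 8.31 FPKM in T3 tails. Ficolin-2-like isoform X2 DN104495_c2_g4 had 1.40, 2.35 and 3.12 FPKM in T3 tails, against 0, 0.64 and 0 FPKM in control tails. Both reached the minimum of 1 FPKM only through the T3 libraries, so they could enter the fit only by differing, and neither a fold change nor a p-value is given for them. The fit called 3 of 10 members higher with T3, these 2 and collectin-12, against 19.2% of all unigenes tested in tail, and 0 of 10 lower, against 6.23%. The counts at an unadjusted p below 0.05 were also 3 and 0. Without these 2, 1 of 8 members was higher and 0 lower, so the share of members called is no result about the family.

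The other 7 members tested in tail did not pass. The ficolin 2 precursor DN104495_c2_g2 had a log2 difference of -0.42 (adjusted p = 0.365), with T3 tail 1 at 30.3 FPKM as the lowest library and overlapping groups. Intelectin 2 had 3.18, 20.9 and 4.5 FPKM in T3 tails, against 5.20, 9.66 and 10.9 FPKM in control tails (-0.21, adjusted p = 0.795). Ficolin DN106059_c0_g1 had 21.6, 23.9 and 20.5 FPKM in T3 tails, against 23.6, 21.1 and 9.34 FPKM in control tails (0.37, adjusted p = 0.441). SP-D DN100139_c12_g1, the leading liver transcript, had 1.85, 5.96 and 1.5 FPKM in T3 tails, against 1.54, 4.97 and 2.00 FPKM in control tails (0.04, adjusted p = 0.952). SP-D DN118199_c2_g2 and DN94832_c2_g3 had differences of 0.45 and 0.76 (adjusted p = 0.456 and 0.132), and without control tail 1, their highest control library, these were 1.01 and 1.07 and both were called. The median of the 10 members was 0.49, beside 0.31 for all unigenes tested in tail. Under median-ratio scaling these were 0.27 and 0.01. Both member medians include DN83941_c0_g1 and DN104495_c2_g4, which entered the fit only through the T3 tails and so raise them. The medians are therefore no result about the family.

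**Figure D5:**
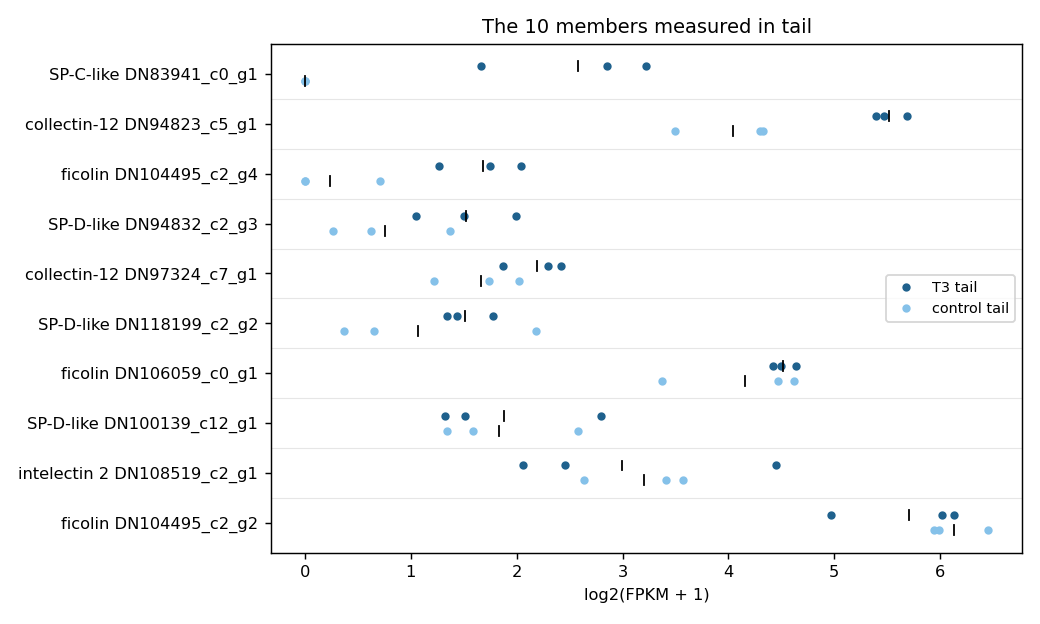
The 10 members measured in tail as log2(FPKM + 1) on the horizontal axis, ordered by their T3 difference, with points for libraries and black ticks for group means. The T3 tails of collectin-12 DN94823_c5_g1, at 41.1 to 50.4 FPKM, all lie above the control tails at 10.3 to 19.1 FPKM, and most other members overlap.

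Tail libraries also differed in tissue markers under T3. Skeletal muscle markers made up 2.46% to 3.64% of summed FPKM in T3 tails, against 3.55% to 6.46% in control tails, and epidermis markers 0.283% to 0.474% in T3 tails, against 0.102% to 0.120% in control tails. The epidermal sum was carried by a few keratins, such as keratin 12 DN93373_c6_g4 with 1279, 1310.1 and 1377 FPKM in T3 tails, against 6.36, 5.86 and 3.39 FPKM in control tails. Of 18 epidermis markers tested 7 rose and 3 fell, where 19.2% and 6.23% of all unigenes in tail did. Of the 7, 3 entered the fit only through the T3 tails, and of the 3, 1 only through the control tails. Keratin 19 DN101368_c2_g3 was among those that fell (-1.83), while desmoplakin, envoplakin and periplakin did not pass. Macrophage and leukocyte markers without lysozyme overlapped, at 146 to 175 FPKM in T3 tails and 88.8 to 246 FPKM in control tails. The part of these shifts in the rise of collectin-12 was not tested.

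Downstream of collectins and ficolins, the lectin pathway list (MASPs, C4, C2, C3 and the plasma protease C1 inhibitor, which restrains MASPs) was lower in T3 livers for 6 of 23 unigenes and higher for 0, where 8.67% and 3.83% of all unigenes were, with a median of -0.75 beside -0.26 for all unigenes. Of the 6, 5 were C3 unigenes, the component shared by all complement routes, and 1 was a MASP2 unigene. Most of the 23 tested unigenes were also described as C3, and some of these share an assembly component. The count and the median therefore describe mainly C3 unigenes, not the lectin pathway as a whole. The most abundant C3 unigene of the list, DN121765_c6_g2, had 2469, 2106 and 2333 FPKM in T3 livers, against 3380.2, 2429 and 2970.2 FPKM in control livers, and did not pass (log2 difference -0.34, adjusted p = 0.224). The wording of the list missed a similarly abundant unigene described as C3 protein, DN118356_c0_g1. It had 2350, 2328 and 2181 FPKM in T3 livers, against 3261, 2460 and 3253 FPKM in control livers. C3 DN99407_c1_g1 fell to 0.91, 1.98 and 2.68 FPKM in T3 livers, against 184, 30.6 and 72.0 FPKM in control livers (-4.77, adjusted p = 0.00407), and was the one unigene of the list called under all 16 alternatives. MASP2, the protease that collectin-11 and ficolins carry, had 2 unigenes in 1 component. DN120431_c5_g2 had 132, 164 and 123 FPKM in T3 livers, against 221, 231 and 235 FPKM in control livers (-0.72, adjusted p = 0.0385), but the call held under only 4 of 16 alternatives. DN120431_c5_g1 had 414, 441 and 373 FPKM in T3 livers, against 586, 515 and 562 FPKM in control livers, and did not pass (-0.44, adjusted p = 0.102). The C4 unigene DN119250_c0_g2 did not pass in liver either (-0.63, adjusted p = 0.257). With any single liver library left out the list gave 1 to 4 calls, and 1 with median-ratio scaling or without control livers 1 and 2.

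In tail, 3 of the 4 tested unigenes of the lectin pathway fell and 0 rose, where 6.23% and 19.2% of all unigenes did. The C4 unigene DN119250_c0_g1 fell to 12.3, 12.8 and 20.3 FPKM in T3 tails, against 121, 70.1 and 79.2 FPKM in control tails (-2.49, adjusted p = 2.58e-04). DN119250_c0_g2 of the same component moved with it (-2.42, adjusted p = 2.41e-04). C2 DN99902_c5_g1 fell to 4.85, 9.13 and 9.48 FPKM in T3 tails, against 43.6, 23.95 and 17.6 FPKM in control tails (-1.69, adjusted p = 0.00729). These 3 calls held under all 15 alternatives. C3 DN121765_c6_g2 was below 6.3 FPKM in all tails and did not pass (adjusted p = 0.176).

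A further list was matched by the wording of complement component 1, which starts the classical pathway towards the same C4 and C2. Of its 7 tested unigenes in liver 2 fell and 0 rose, where 8.67% and 3.83% of all unigenes did. In tail 1 of 7 rose and 0 fell, where 19.2% and 6.23% did. The list also holds a C1q-binding protein in both tissues and a C1q and tumor necrosis factor-related protein in tail, which do not start the pathway and did not pass. C1q subunit A DN88613_c0_g1 fell to 44.1, 24.2 and 62.8 FPKM in T3 livers, against 271, 147 and 175 FPKM in control livers (-2.20, adjusted p = 0.0133). Calreticulin DN103180_c4_g2, a partner of collectins in the clearance of dying cells, did not pass in liver or tail (0.64 and 0.35, adjusted p = 0.219 and 0.341), nor did the other tested unigene of its list.

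Pentraxins, soluble pattern receptors that bind C1q, gave 3 lower and 0 higher of 7 in tail, where 6.23% and 19.2% of all unigenes were. In liver 1 of 5 was higher and 0 lower, where 3.83% and 8.67% were. By its wording the list also holds larger proteins that only contain a pentraxin domain (DN104581_c4_g1 in liver, DN98125_c5_g1 in tail), which did not pass. Pentraxin 3, the long pentraxin of inflamed tissue, fell in tail in all 3 of its tested unigenes. The leading one, DN108425_c10_g1, had 19.9, 36.0 and 28.9 FPKM in T3 tails, against 157, 90.9 and 110.02 FPKM in control tails (-2.04, adjusted p = 9.55e-04), and the others fell by 2.89 and 1.77 on the log2 scale. In liver 1 of 5 pentraxins rose, the C-reactive protein unigene DN100011_c6_g1, with 55.2, 128 and 80.2 FPKM in T3 livers, against 45.4, 25.2 and 22.5 FPKM in control livers (1.45, adjusted p = 0.0445, called under 6 of 16 alternatives). A unigene of the same description, DN95953_c5_g2, went the other way. It had 6.42, 20.4 and 23.3 FPKM in T3 livers, against 90.5, 26.5 and 52.2 FPKM in control livers, and did not pass (limma, -1.71, adjusted p = 0.0873). The abundant liver pentraxin DN114185_c0_g2 had 2436, 2499 and 3025 FPKM in T3 livers, against 1809, 1893 and 1973 FPKM in control livers, and did not pass (0.48, adjusted p = 0.0713). These calls concern different genes, and a difference between the tissues was not tested.

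Galectins, soluble lectins for beta-galactosides, were called lower in 2 and higher in 1 of 10 tested unigenes in liver, where 8.67% and 3.83% of all unigenes were. Galectin 4 DN107749_c7_g1 fell to 27.8, 46.4 and 53.8 FPKM in T3 livers, against 318, 335 and 398 FPKM in control livers (-3.05, adjusted p = 9.09e-04). That call was lost only in the fit with control liver 3 as the lone control. Xgalectin-iva DN95817_c5_g1 was near the threshold (-1.55, adjusted p = 0.0485). The galectin IX unigene DN94198_c0_g1 had 3.36, 1.29 and 2.31 FPKM in T3 livers, against 0, 0.84 and 0 FPKM in control livers, and entered the fit only through the T3 livers. Leaving out any single library gave 1 to 2 calls for the list. In tail 4 of 12 galectins were called higher and 0 lower, where 19.2% and 6.23% of all unigenes were, but 2 of the 4 entered the fit only through the T3 tails, and with median-ratio scaling 2 were higher and 2 lower. DN120071_c8_g1, the homolog of a toad ovary galectin, had 240.3, 337 and 255 FPKM in T3 tails, against 182, 109.9 and 173 FPKM in control tails (0.85, adjusted p = 0.0380, lost under 6 of 15 alternatives). The most abundant in T3 tails, galectin-4-like DN108219_c1_g1, had 383, 453 and 502 FPKM in T3 tails, against 361, 551 and 238 FPKM in control tails, and did not pass (0.29, adjusted p = 0.493). Galectin-1 DN96035_c2_g1 had 34.9, 140.4 and 76.8 FPKM in T3 tails, against 73.3, 187 and 2829 FPKM in control tails, where control tail 3 stood alone, and did not pass (adjusted p = 0.143).

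Membrane C-type lectins share the sugar-binding fold of collectins but mostly sit on cells. The wording of the list also took in secreted proteins, such as C-type lectin domain family 3 member B. Of 38 tested unigenes in liver 8 were called lower and 0 higher, where 8.67% and 3.83% of all unigenes were. Their median was -0.99. Of the 8, 3 entered the fit only through the control livers. The CD209-like DN108718_c2_g1 had 6.48, 1.81 and 4.62 FPKM in T3 livers, against 22.8, 43.9 and 17.4 FPKM in control livers (-2.46, adjusted p = 0.0167). The abundant asialoglycoprotein-receptor type DN120589_c7_g1, hepatic lectin-like, had 178, 333 and 224 FPKM in T3 livers, against 363, 358 and 359.7 FPKM in control livers, and did not pass (-0.60, adjusted p = 0.139). Asialoglycoprotein receptor 2-like DN88787_c1_g1 had 106, 9.07 and 121 FPKM in T3 livers, against 94.2, 105.6 and 131 FPKM in control livers, again with T3 liver 2 alone below (-1.12, adjusted p = 0.432). Without control livers 1 and 2 limma called 0 of the 38, with 9 lower and 0 higher at an unadjusted p below 0.05. Omission of control liver 1, 2 or 3 alone gave 3, 4 and 3 calls. In tail 6 of 46 were called higher and 3 lower, where 19.2% and 6.23% of all unigenes were, and 1 in each direction entered the fit through 1 group only. Median-ratio scaling gave 4 higher and 6 lower, and 16 were called without control tail 1. The most abundant of the list in tail did not pass in limma. These were C-type lectin domain family 3 member B DN86588_c0_g1 (0.30, adjusted p = 0.518), hepatic lectin-like DN92129_c5_g1 (1.24, adjusted p = 0.0529) and DN120589_c7_g1 (-0.03, adjusted p = 0.977). Hepatic lectin-like DN96438_c1_g1 rose to 33.0, 28.8 and 52.1 FPKM in T3 tails, against 1.99, 0.21 and 0.35 FPKM in control tails (4.48, adjusted p = 1.98e-05), and the P-selectin ligand among the 6, which is not itself a lectin, entered by its wording. Other soluble lectins were few: fucolectin-1-like DN119753_c11_g1 had 989, 1719 and 578 FPKM in T3 livers, against 1298, 1099.6 and 1803 FPKM in control livers, and did not pass (-0.46, adjusted p = 0.463). Of the list, 1 of 3 was called higher in liver and 1 of 4 in tail, both zymogen granule protein 16-like unigenes at or below 2.44 FPKM that entered the fit only through T3 libraries.

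The transcripts most like collectin-11 DN101620_c7_g1 over the 12 libraries were found by Pearson correlation of log2(FPKM + 1) across 23276 described unigenes. They were a transmembrane protease serine 5-like unigene (r = 0.992), a partial alpha-1-antitrypsin (0.988), an uncharacterised protein (0.985), an androglobin-like unigene (0.985) and a CEACAM1-like adhesion molecule (0.983). For SP-D DN100139_c12_g1, the most abundant surfactant unigene, they were an unknown protein (DN121765_c6_g1, r = 0.999), a C3 unigene (0.999), complement C9 (0.999), an uncharacterised precursor (DN121765_c6_g4, 0.998) and complement C5 (0.998). The unknown protein and the uncharacterised precursor share an assembly component with C3 DN121765_c6_g2, so they may be pieces or near copies of C3. The neighbours of DN100139_c12_g1 were abundant in all livers and at most 5.93 FPKM in tails. Those of collectin-11 were lower in all T3 livers than in all control livers and at most 0.68 FPKM in tails, as for the uncharacterised DN121709_c1_g1 with 10.4, 11.6 and 9.65 FPKM in T3 livers, against 713, 262 and 368 FPKM in control livers. For SP-D DN100732_c3_g1, added to the search because it also led the liver differences, the nearest were DN121709_c1_g1 (r = 0.996), allantoinase (0.993), an Ambp protein (0.990), a mucin-5AC-like unigene (0.987) and the transmembrane protease (0.987), so 2 of its 5 neighbours were also those of collectin-11. The neighbours were picked by likeness over these same 12 libraries, so their levels follow from the choice. Collectin-11 DN101620_c7_g1 and SP-D DN100732_c3_g1 were both chosen for their liver falls, so the shared neighbours are no result. The 12 libraries are the only points, and no correlation was tested.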

How the data were processed

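RNA from liver and tail, 3 libraries per treatment and tissue, was sequenced on an Illumina HiSeq instrument. To make the deposited FPKM values, the authors processed reads as follows. Reads were assembled with Trinity into 56172 unigenes, annotated against NR and quantified with Bowtie and RSEM (versions not given in the sources used here), and replicates were not pooled. The table has 2 decimals, and 0 columns of values were left unmapped. FPKM is relative to the library total, so a change in abundant transcripts shifts all others.

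Per tissue, log2(FPKM + 1) of unigenes with at least 1 FPKM in 3 of 6 libraries (18923 in liver, 18429 in tail) was fitted with limma 3.58.1 (R 4.3.3, variance trend), T3 against control, with Benjamini-Hochberg adjustment over all of them and a call at an adjusted p below 0.05. Where nothing says that libraries are separate animals, p-values measure the spread between these libraries. Tables and figures used Python 3.11.15, pandas 2.3.3, numpy 2.4.6 and matplotlib 3.10.9. The fit was tested on simulated data: of 50 unigenes planted with a log2 change of 2 it found 42 in liver and 34 in tail. Of 50 planted with a log2 change of 1 it found 30 in liver and 9 in tail, so changes of that size were mostly missed in tail. Each whole simulated set gave 13 false calls in liver and 8 in tail. Changes were planted only in unigenes well above 1 FPKM, so low members are not covered.

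Members and lists were chosen with earlier results of these data known. Members with a mean of at least 10 FPKM in a group are given per library. From each list the rule picks the 3 most abundant unigenes with a description of their own, but not all of these are given. Other list unigenes (such as C3 DN99407_c1_g1, MASP2 DN120431_c5_g2, CD209-like DN108718_c2_g1 and hepatic lectin-like DN96438_c1_g1) were chosen after their values were seen. The alternatives were pseudocounts of 0.1 and 5, no filter, a minimum of 5 FPKM, equal library sums, median-ratio scaling, quantile normalization, no variance trend, a replicate block, and libraries left out.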

Additional observations from a re-analysis of the deposited data

How the results depend on the processing

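Scaling moved the balance of calls over all unigenes. In liver 725 were higher and 1640 lower with T3, against 979 and 662 with median-ratio scaling and 922 and 754 with quantile normalization. In tail 3540 were higher and 1148 lower, against 2601 and 2586, and 2556 and 2497. Without control livers 1 and 2, 80 were higher and 55 lower. Of the members, 8 lay past the threshold in liver (the contrast that chose them, so a description only), and 5 with no filter, with median-ratio scaling and with quantile normalization, and 3 without control livers 1 and 2. In tail 3 were called, and 1 at a minimum of 5 FPKM, where fewer were tested. The lectin pathway had 6 calls in liver, 3 with a pseudocount of 0.1, equal sums or no trend, 11 at a minimum of 5 FPKM, and 1 with no filter, median-ratio scaling, quantile normalization or without control livers 1 and 2. Galectins had 3 calls in liver, 1 with a pseudocount of 0.1 or no filter and 0 without control livers 1 and 2 (limma, 2 higher and 3 lower at an unadjusted p below 0.05), and 4 in tail, 2 with no filter and 1 at 5 FPKM. Membrane C-type lectins had 0 calls in liver without control livers 1 and 2 (limma, 0 higher and 9 lower unadjusted). The causes were not tested.

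With each library left out in turn, members past the threshold in liver, a description only, numbered 4 to 7, and the calls ranged from 3 to 5 for members in tail (5 without control tail 1), 1 to 4 for the lectin pathway in liver and 3 to 3 in tail, 1 to 2 for galectins in liver and 2 to 7 in tail, and 3 to 9 for membrane C-type lectins in liver and 5 to 16 in tail. Reversed tail differences, none of them called, were SP-D DN100139_c12_g1 (-0.25 with median-ratio scaling, -0.30 with quantile normalization, -0.42 to 0.41 with a library left out), ficolin DN106059_c0_g1 (-0.0060 with median-ratio scaling, -0.026 to 0.60 with a library left out) and intelectin 2 (-0.94 to 0.25 with a library left out). Replicate numbers were not taken to pair T3 and control libraries, since the sources used here do not pair them. Deviations from the group means correlated at 0.072 to 0.238 for same-numbered livers, against -0.237 to 0.079 for differently numbered livers. In tail these values were 0.032 to 0.073 and -0.104 to 0.059. Whether the numbers mark pairs or batches was not tested. A replicate block gave 8 members past the threshold in liver and 3 in tail, 7 and 3 for the lectin pathway, 3 and 6 for galectins, and 10 and 13 for membrane C-type lectins. Depth in reads is unknown, and low members near 1 FPKM rest on few fragments.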
